A study of Mus musculus with 10 samples.

Results

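The right ventricle of trained wildtype mice was described as a single landscape of gene expression, from the 4 arrays that the labels call trained wildtype, of 10 arrays in the series. No other group enters the values below. Each array carried the total RNA of the right ventricle of 1 mouse of strain 129SV, wildtype at the plakoglobin gene and 6 months old. Before dissection the mice had swum in water of 35 °C, 6 times per week, for daily sessions lengthened from 5 to 90 min, and they were urged on whenever they floated. Replicates 1 and 3 were male and replicates 2 and 4 were female. The labels do not state the number of sessions or the time between the last swim and dissection. Strain, age and training are shared by all 4 mice, so this description cannot separate what training did from what a 129SV right ventricle shows in any case.

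The right ventricle pumps blood at low pressure into the lungs. Its wall is built mostly from cardiac myocytes, large cells filled with sarcomeres and mitochondria, which stand among far more numerous but smaller endothelial cells, fibroblasts, pericytes and macrophages. In each contraction, calcium released from the sarcoplasmic reticulum binds troponin C, and the troponin complex then lets myosin heads pull on actin. The pump encoded by Atp2a2 returns the calcium, and phospholamban (Pln) holds that pump back. The ATP comes largely from fatty acids and lactate burned in mitochondria, and myoglobin stores and carries the oxygen. Mouse ventricles run on the fast alpha myosin heavy chain (Myh6), and many contractile proteins have sister isoforms in skeletal muscle, atrium or fetal heart.

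Signals are MAS5 intensities, a linear scale without a fixed unit, on which each array had been brought to a common trimmed mean (2501 on each array after the lowest and highest 2% of values were dropped). A gene was read by its brightest probe set with 1 gene symbol, which gave 12393 genes. The median gene had a mean signal of 1346, and 1 in 20 genes lay above 15387. Probe sets differ in how well they bind, so a signal is not a number of molecules. 2 scales were used to read gaps between genes. The first was the gap between probe sets of one gene: over 3100 genes with several, the brightest exceeded the next by a median of 2.19-fold and, at the 90th percentile of these genes, by 9.95-fold. The second was a list of 48 genes of other organs, such as liver, pancreas and brain, whose signals ran from 23.0 to 6871 with a median of 541.7. The 90th percentile of that list, 1477, served as a limit, and 47.3% of all genes lay above it. The list is not a true zero, as 5 of its 48 members passed its own limit.

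The arrays differed in quality, and this touches several results below. The GAPDH control has probe sets at both ends of its transcript, and the 3' signal divided by the 5' signal, which is higher when reverse transcription stops short or RNA is broken, was 2.50 in replicate 1, 17.8 in replicate 2, 0.916 in replicate 3 and 1.02 in replicate 4. The actin ratio was 3.05 in replicate 1 and between 0.979 and 1.29 in the others. Pearson correlations between arrays, over probe sets, which are not independent replicates, lay between 0.894 and 0.915. The spiked control transcripts were lowest in replicate 1 and highest in replicate 4 for each of the 4 measured. Values therefore come with all 4 arrays wherever a result turns on them. Family leaders and the median spread are also given without replicates 1 and 2, while ranges within lists and counts by sex are not.

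To show what lies upstream of the genes that carry the results, the 250 bases before the RefSeq start (assembly GRCm38.p6) are given for 3 myocyte genes of the label check and for 2 immediate early genes that differed between mice, Fos and Dusp1. They were chosen among the genes described here, and all 5 have a single start in that table. The windows lie at chr14:54966608-54966857 (Myh6, minus strand), chr10:53337436-53337685 (Pln, plus), chr4:148000472-148000721 (Nppa, plus), chr12:85473640-85473889 (Fos, plus) and chr17:26508473-26508722 (Dusp1, minus). Each is read 5′ to 3′ along the gene, and capitals mark the motif found in it.
Myh6: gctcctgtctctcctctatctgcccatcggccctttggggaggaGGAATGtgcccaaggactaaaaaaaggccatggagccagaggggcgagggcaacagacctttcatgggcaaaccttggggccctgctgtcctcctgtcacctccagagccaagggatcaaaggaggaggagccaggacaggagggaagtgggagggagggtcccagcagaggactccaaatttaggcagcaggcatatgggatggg
Pln: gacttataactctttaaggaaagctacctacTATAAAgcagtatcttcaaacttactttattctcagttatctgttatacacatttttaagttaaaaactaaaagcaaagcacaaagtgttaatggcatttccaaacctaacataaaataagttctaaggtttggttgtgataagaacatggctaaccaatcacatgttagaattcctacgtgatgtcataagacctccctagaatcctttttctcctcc
Nppa: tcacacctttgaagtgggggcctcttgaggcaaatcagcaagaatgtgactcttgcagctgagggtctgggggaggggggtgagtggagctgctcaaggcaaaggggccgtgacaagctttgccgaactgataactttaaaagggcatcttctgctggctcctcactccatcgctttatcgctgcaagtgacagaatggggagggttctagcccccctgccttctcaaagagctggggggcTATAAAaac
Fos: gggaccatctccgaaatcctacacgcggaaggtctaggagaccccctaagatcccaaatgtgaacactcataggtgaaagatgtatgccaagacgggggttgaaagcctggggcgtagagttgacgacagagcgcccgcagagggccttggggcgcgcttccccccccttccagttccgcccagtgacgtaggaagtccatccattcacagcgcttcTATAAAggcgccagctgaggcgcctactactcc
Dusp1: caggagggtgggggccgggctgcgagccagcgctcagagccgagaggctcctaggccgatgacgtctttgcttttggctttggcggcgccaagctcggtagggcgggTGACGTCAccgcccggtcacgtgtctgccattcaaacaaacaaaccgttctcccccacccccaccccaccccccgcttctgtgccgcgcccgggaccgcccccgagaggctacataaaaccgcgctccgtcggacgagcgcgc

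Motifs were searched on both strands, with positions counted back from the start. The windows were searched for TATAAA (the TATA box core), CATTCC (the core that TEAD factors bind), TGACGTCA (the full cyclic AMP response element) and the CArG box of serum response factor. The Myh6 window holds the TEAD core in reverse at -206, and Pln holds TATAAA at -219, far from the position at which a TATA box works. Fos holds TATAAA at -33 and Nppa at -9, while Dusp1 holds the full cyclic AMP element at -143. Over all 32851 promoter windows of this length, TATAAA occurs in 12.4%, CATTCC in 12.6%, TGACGTCA in 1.55% and the CArG box in 1.47%. Counted per gene, as for the brightest genes below, the shares over 9887 genes of the array are 10.7%, 13.6%, 2.53% and 1.60%. Of the 30 brightest genes 22 have a window in the table, of which 4 hold TATAAA, 5 CATTCC, 2 a CArG box and 1 TGACGTCA. Of the 100 brightest, 85 have a window, of which 7 (8.24%) hold TATAAA, 12 (14.1%) CATTCC, 4 a CArG box and 3 TGACGTCA. A match is a run of letters and not a measured binding site, and a window without one says nothing about the factor.

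The brightest transcripts were those of oxygen storage, the contractile apparatus and the respiratory chain. Myoglobin (Mb), the oxygen-binding protein of red muscle, stood first with 288711, 292340, 296080 and 310081 in replicates 1 to 4, a mean of 296803 ± 9349 (SD, n = 4). Uqcrb, a subunit of respiratory complex III, followed at 283909 ± 46370.3 (SD, n = 4), and Slc25a4, which exchanges ATP for ADP across the inner mitochondrial membrane, at 264869 ± 27812 (SD, n = 4). Between them stood Myl3, the essential light chain of ventricular myosin, at 275323 ± 14505 (SD, n = 4). The regulatory light chain Myl2, cardiac actin Actc1, the myosin heavy chain Myh6 and troponin T (Tnnt2) came next, so that 5 of the first 8 genes build the sarcomere.

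The 5 genes that check the tissue label were all bright. Myl2 read 222537, 281031, 250172 and 298801, lowest in replicate 1. Myh6 read 234351, 222629, 261069 and 279306, and Tnnt2 read 238371, 232442, 230761 and 287211. The spread of each over the mice was small against its distance to the median gene. Pln read 187834, 234344, 240668 and 248303, rank 11 of all genes. Nppa, which encodes atrial natriuretic peptide and is made mainly by atrial myocytes in the adult and by ventricular myocytes under load, read 31919, 22146, 29442 and 34501, rank 310. Nppa was above the limit in each mouse. Its distance to the other 4 is within the 9.95-fold scale, so no order is read from it.

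After the first 8 came the calcium pump Atp2a2 at 230285 ± 35751, tropomyosin Tpm1 at 228572 ± 27460, Pln at 227787 ± 27240 and lipoprotein lipase (Lpl), which frees fatty acids from blood lipoproteins, at 226137 ± 18996 (SD, n = 4 each). Tpt1, a growth-related protein found in most cells, and ND5, a complex I subunit encoded in mitochondrial DNA, followed at 224754 and 223142. Ranks 15 to 30 were held by the phosphate carrier Slc25a3, troponin I (Tnni3), troponin C (Tnnc1), the ferritin heavy chain Fth1, cytochrome c (Cycs), the fatty acid binding protein Fabp3, malate dehydrogenase Mdh1, the ribosomal protein Rps2, and 8 further subunits of cytochrome c oxidase and ATP synthase. The lowest of these was Cox6c with 149603 ± 29028 (SD, n = 4).

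**Figure D1:**
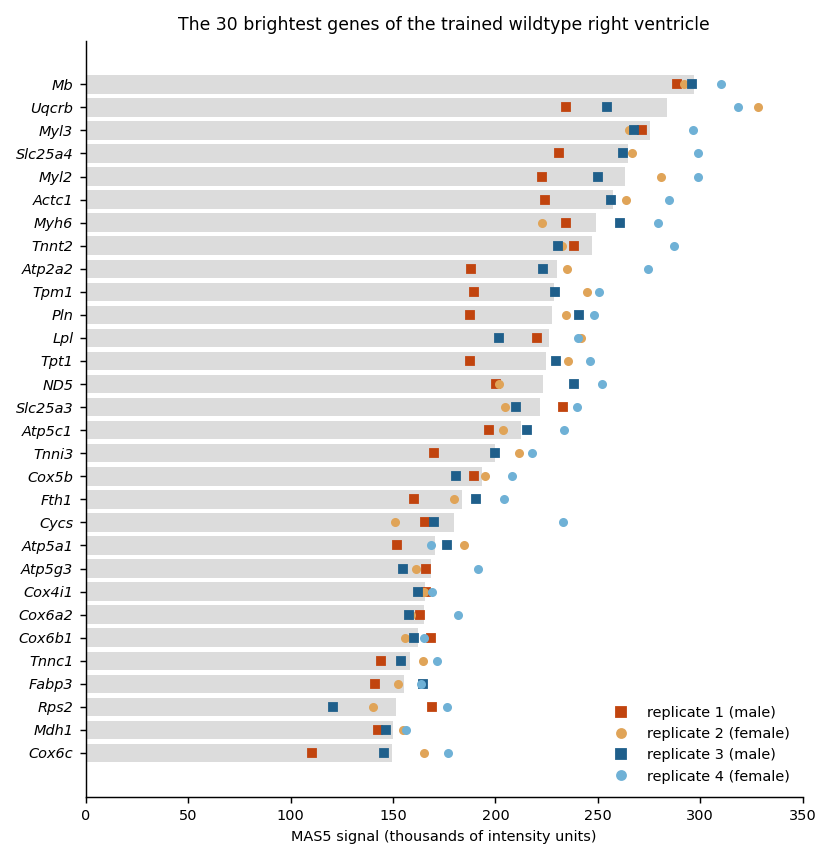
MAS5 signal of the 30 brightest genes in intensity units divided by 1000, on a linear axis; bars are means of 4 mice, squares are the males and circles the females. Mb has the highest mean, 296803, and Cox6c the lowest of the 30, 149603, and the points of neighbouring genes overlap throughout.

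Neighbours in this order did not differ beyond their spread. The first gene exceeded the 15th by 1.34-fold and the 30th by 1.98-fold, while the median coefficient of variation among the 30 was 9.94%. Even so, membership was stable: 11 of the 15 brightest genes were among the first 15 on every array, 23 of 30 among the first 30, and 76 of 100 among the first 100. The deposited values carry no saturation flags, so whether the flat top of this order is a limit of the scanner was not tested.

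Signal was concentrated in few genes. The 10 brightest held 4.56% ± 0.404 of the summed signal, the 30 brightest 11.03% ± 0.836 and the 100 brightest 24.4% ± 1.24 (SD, n = 4 each). The 500 brightest held 49.7% ± 1.70 and the 1000 brightest 61.4% ± 1.45 (SD, n = 4 each). Replicate 1 gave the lowest of the 4 shares at each of these sizes, for instance 22.9% for 100 genes against 24.2% to 25.9% in the other mice.

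Of the 100 brightest genes, which are 0.807% of all genes, 85 belonged to a list of known function. Oxidative phosphorylation supplied 38 of its 73 measured members, the sarcomere and Z-disc 14 of 27, the tricarboxylic acid cycle 9 of 21, and fatty acid uptake and oxidation 7 of 24. Energy buffering and oxygen storage supplied 6 of 12, cytosolic ribosomal proteins 7 of 43, glycolysis 3 of 13, calcium handling 2 of 16, and chaperones 1 of 16. The lists of clock genes, immediate early genes, and natriuretic peptides and hypertrophy genes supplied none. Median signals were 83437 for the sarcomere list, 80758 for oxidative phosphorylation, 74073 for the tricarboxylic acid cycle, 50854 for fatty acid oxidation and 50138 for glycolysis, against 1346 for all genes. Genes in the oxidative phosphorylation list together held 11.9% ± 0.763 of the summed signal and the sarcomere list 5.23% ± 0.314 (SD, n = 4 each).

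The complexes of the respiratory chain had median signals within a span close to the 2.19-fold median gap between probe sets of one gene, so no order of complexes is read from them. Complex IV, cytochrome c oxidase, had a median of 140236 over 11 genes, with 8 of them among the 100 brightest. ATP synthase had a median of 111692 over 15 genes and 11 in the first 100, and complex III with cytochrome c had 100769 over 10 genes and 7 in the first 100. Complex I, the largest, had 65764 over 33 genes and 11 in the first 100. Complex II, which has only 4 genes and also serves the tricarboxylic acid cycle, had 53830, with Sdhb at 146312 as its brightest. The dimmest member in the whole list was Cox7c, a small subunit of complex IV, at 560.8 with 305.0, 663.6, 299.5 and 975.1 in the 4 mice. All 4 values are under the limit from other organs, whereas its partner subunits Cox6c and Cox7a2 read 149603 and 127715. This is the brighter of its 2 probe sets, and whether either binds the transcript well was not tested.

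Genes of fuel use ranged widely. After Lpl and Fabp3, the trifunctional protein subunit Hadhb read 136317, the acyl-CoA dehydrogenases Acadm and Acadl 112622 and 103162, and the fatty acid translocase Cd36 59729, while the carnitine enzyme Cpt2 read 21986 and the fatty acid transporter Slc27a1 5419. Of the tricarboxylic acid cycle, Mdh1 read 150090, Mdh2 125053 and citrate synthase (Cs) 117581, and all 21 measured genes of the list exceeded the limit. In glycolysis aldolase Aldoa (116502), enolase Eno3 (111047) and Ldhb (103617) led, while the hexokinases that trap glucose stood at 19698 (Hk2) and 14212 (Hk1) and the glucose transporter Slc2a4 at 34429. These are levels of different probe sets, and most of these gaps lie within 9.95-fold, so no order of fatty acid against glucose genes is read from them.

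Hadha, the partner of Hadhb in the same enzyme, shows how 1 array can set a level. It read 68432, 60370 and 59593 in replicates 2 to 4 but 9491 in replicate 1, which pulled its mean to 49472. Cox8b, the muscle isoform of a cytochrome c oxidase subunit, did the same with 44349 in replicate 1 against 130389 to 158722 in the others. Among ribosomal proteins, Rps29 (62999 in replicate 1, and 109087 to 133264 otherwise) and Rpl38 (64130, and 102793 to 138185 otherwise) also lay lowest in replicate 1. Of 43 ribosomal protein genes, 21 were lowest in replicate 1, 17 in replicate 3, 4 in replicate 2 and 1 in replicate 4. Of 73 oxidative phosphorylation genes, 32 were lowest in replicate 1, 26 in replicate 3, 12 in replicate 2 and 3 in replicate 4. Both males thus held most of the lows. Over all 12393 genes, replicate 1 was lowest for 22.3%, replicate 2 for 32.8%, replicate 3 for 21.6% and replicate 4 for 23.5%.

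The 15 genes of the first 100 that fell in none of the function lists were Tpt1, ND5, Fth1, Tuba4a, Nme2, Ech1, Crip2, Chchd10, Hopx, Itm2b, Gsn, Gja1, Gm12338, C1qbp and Eef1a2. ND5, Chchd10 and C1qbp act in mitochondria and Ech1 in fatty acid breakdown. Gja1 encodes connexin 43, the gap junction protein of the ventricle, and read 90673, 92607, 93284 and 92596. Hopx, a homeodomain protein of heart development, read 109894 ± 7804, and Gsn, the actin-severing protein gelsolin, 97753 ± 22711 (SD, n = 4 each). Tuba4a, an alpha tubulin, read 146771 ± 24683 (SD, n = 4), behind Tpt1, ND5 and Fth1.

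The gap between the 2 brightest members went beyond the scale of probe sets of one gene in 20 of 56 families. Of 64 families of related genes, 58 had 2 or more members on the array and 56 of these had a leader above the limit. In 46 of the 56 the same gene led on all 4 arrays, an order of fixed probe sets that probe affinity can also set. The median gap was 2.14 on the log2 scale. In 20 the leader exceeded the next member by more than 9.95-fold, the 90th percentile of the gap between probe sets of one gene, and in each of these 20 the leader led in all 4 mice. In 12 of the 56 the next member was at or below the limit. All of these 12 but the desmocollins are among the 20, so the size of their gaps is not read. Mb with Hba-a1 is also among the 20 and is not a choice of isoform. Families were not always complete, with 2 of 3 enolases, 2 of 3 aldolases, 2 of 4 hexokinases and 2 of 4 pump regulators measured. A member that was not measured could exceed the next one named here. Leaving out replicates 1 and 2, the arrays of high GAPDH ratio, kept the leader in 56 of 56.

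In the thin filament the cardiac isoforms led by wide gaps. Tnnc1, cardiac and slow troponin C, read 143964, 164480, 153928 and 171648 against 95, 78.5, 100.5 and 99 for the fast skeletal Tnnc2. Tnni3 read 199759 and the fast skeletal Tnni2 481.0, and the slow skeletal and fetal Tnni1 read 114.1. Tnnt2 exceeded the slow skeletal Tnnt1 by 104-fold (on the scale of means of log2 signal, as for all family folds), though Tnnt1 at 2468 passed the limit. For Tnnc2, Tnni2 and Tnni1 every mouse lay below the limit, so no fold is given for them.

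Myosin heavy chain was led by Myh6 over Myh7, the beta chain of fetal, failing and human ventricles, by 28.9-fold. The genes are direct neighbours on their chromosome, with 0 protein-coding genes between them. Myh7 read 8687, 11876, 8609 and 6172, and the log2 gap ran from 4.23 to 5.50 over the 4 mice. Myh7 was above the limit in every mouse, as were the non-muscle chains Myh14 (6822) and Myh9 (4883), while the skeletal chains Myh1, Myh2 and Myh4 read 402.8, 233.2 and 172.3. Tropomyosin was led by Tpm1 over Tpm4 by 38.3-fold with its brightest probe set. The other 2 probe sets of Tpm1 read 2069 and 1945, below Tpm4 (6098), Tpm3 (5560) and Tpm2 (3987), so this order holds only for the brightest probe set.

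Actin and the light chains were less one-sided. Actc1 exceeded smooth muscle actin Acta2 by 7.02-fold, which is within the range seen between probe sets of one gene, although in all 4 mice. Acta2 read 34691, 26680, 34102 and 56258, highest in replicate 4, and the skeletal isoform Acta1, which returns in hypertrophy, read 8209, 13004, 15302 and 9998. Myl3 and Myl2 were tied at 1.05-fold. They are not alternatives, since each myosin head carries an essential and a regulatory light chain. The atrial light chains Myl4 (2151) and Myl7 (336.4) and the fast skeletal Mylpf (519.1) were more than 2 orders of magnitude lower.

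The calcium pump, release channel and calsequestrin families were led by their cardiac isoforms. Atp2a2 exceeded the fast skeletal pump Atp2a1 by 106-fold and the calcium buffer Casq2 exceeded the skeletal Casq1 by 22.9-fold. The release channel Ryr2 read 58907 with its brighter probe set and 1396, under the limit, with the other, while Ryr3 read 605.6, 801.6, 376.5 and 789.6. Pln was read by 3 probe sets at 227787, 179630.0 and 165922. Sarcolipin (Sln), the pump inhibitor of atrium and skeletal muscle, read 226.5, 143.5, 369.0 and 700.1. All values of Ryr3 and Sln are below the limit, so no fold is given for them. CaM kinase II was led by Camk2g (4518) over Camk2d (2548) by 1.97-fold in 4 of 4 mice, and Slc8a1, the sodium-calcium exchanger, read 1841 and the L-type channel Cacna1c 9581. Cacna1c stood at 16003 in replicate 2 and between 7193 and 7703 in the others.

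Among metabolic families, phosphoglycerate mutase and glucose transporters were led by a muscle isoform beyond the 9.95-fold scale. Pgam2, the muscle phosphoglycerate mutase, exceeded Pgam1 by 14.3-fold, and Slc2a4, the insulin-responsive glucose transporter GLUT4, exceeded Slc2a1 by 14.5-fold. Slc2a4 read 30921, 32357, 37011 and 37428 with its brightest probe set, a narrow range. Its other probe set read 6147, 781.6, 22512 and 18881, below Slc2a1 (2111) in replicate 2. The lead of Slc2a4 in every mouse thus holds only for the brightest probe set. Acacb, the carboxylase whose product restrains fatty acid entry into mitochondria, read 11359 and the lipid-making Acaca 765.1. In this and the following families the mean of the next member was under the limit, so that no fold is given. The pairs were Cox4i1 (165698) with the oxygen-regulated lung isoform Cox4i2 (1141), and Aldoa (116502) with Aldoc (1014). The muscle enolase Eno3 (111047) was paired with the neuronal Eno2 (94.0, 160.0, 189.0 and 297.0). Only 2 of 3 enolases and 2 of 3 aldolases were measured, so the lead within these families holds for the measured members. The lactate transporter Slc16a1 read 21916 and Slc16a3, which exports lactate from glycolytic fibres, 390.3.

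In other enzyme families 2 isoforms were bright side by side. The heart form Cox6a2 exceeded Cox6a1 by 4.30-fold and Cox8b exceeded Cox8a by 9.67-fold, whereas the general form Cox7a2 exceeded the muscle form Cox7a1 by 1.82-fold in all 4 mice. Ldhb, the heart form of lactate dehydrogenase, read 119812, 130006, 74394 and 90254, and Ldha 68534, 68607, 55012 and 69024, so Ldhb was higher in each mouse, by 1.56-fold. Creatine kinase was shared by the cytosolic Ckm (135230.0) and the mitochondrial Ckmt2 (119569), with Ckmt2 above Ckm in replicate 1 only. Hexokinase 2 exceeded hexokinase 1 in 3 of 4 mice, and glycogen phosphorylase was split between the muscle form Pygm (42401) and the brain form Pygb (31213). Pdk4, the kinase that shuts pyruvate out of the mitochondrion during fasting, read 19458, 22486, 25480 and 10213 against 6168, 17745, 15801 and 16284 for Pdk2, and led in 3 of 4. None of these gaps exceeded 9.95-fold.

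Cell contacts, growth factors and transcription factors gave the rest. Gja1 exceeded Gjc1, the next of 6 connexins, by 40.5-fold, and the conduction system connexin Gja5 read 44.0. N-cadherin (Cdh2), which joins myocytes end to end, read 23530 against 10280.0 for Cdh13, a vascular cadherin, and 4966 for the endothelial Cdh5. Plakoglobin (Jup) read 3613 and its relative beta-catenin (Ctnnb1) 29665, 8.14-fold apart and so within the 9.95-fold scale. The other probe sets of Ctnnb1 read 7524 and 3860, and in replicate 1 both (2612 and 1251) lay below Jup (2928). Among desmosomal genes Dsg2 read 9334, Pkp2 17939 and Dsc2 1528, the last just above the limit. Vegfb exceeded Vegfa by 3.31-fold, Mef2a exceeded Mef2c by 4.99-fold and Gata6 exceeded Gata4 by 3.03-fold, each in 4 of 4 mice but within the 9.95-fold scale. The other probe set of Gata6 read 2794 and 3251 in replicates 2 and 3, below Gata4 (4281 and 3318). Other probe sets of Mef2a had means from 105 to 12449, against 5018 for Mef2c. Csrp3, muscle LIM protein, exceeded Csrp2 by 17.1-fold, and Fhl2 exceeded Fhl1 by 4.20-fold.

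Natriuretic peptide genes are neighbours too, with 0 protein-coding genes between Nppa and Nppb. Nppb, which encodes the B-type peptide of the ventricle, read 17439, 11463, 16097 and 6444, below Nppa in every mouse by 2.43-fold. The peptide-processing enzymes were bright as well, with Pam, which amidates peptide hormones, at 26733 and Corin, the protease that cuts the Nppa precursor, at 17233. Of the receptors Npr2 read 4311 and the clearance receptor Npr3 1810, while Npr1, the receptor for both Nppa and Nppb products, read 355.1, under the limit in all 4 mice.

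**Figure D2:**
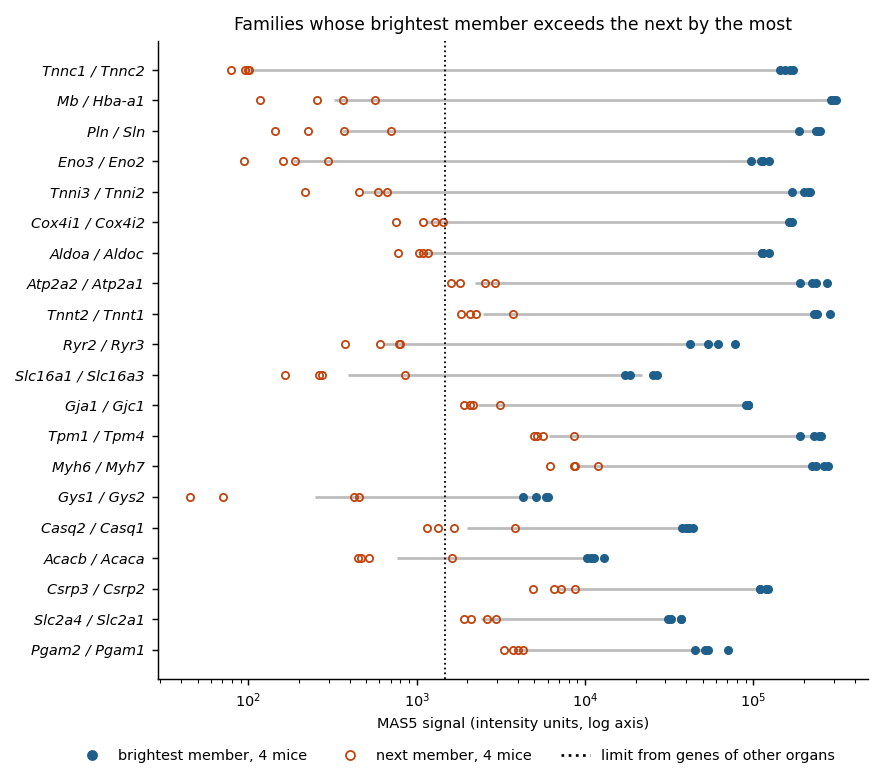
The 20 families whose brightest member exceeds the next by more than 9.95-fold, on a log axis of MAS5 signal; filled circles are the brightest member and open circles the next, in 4 mice, the grey line joins their means, and the dotted line is the limit of 1477. In each family all 4 filled circles lie right of all 4 open circles (Tnnc1 over Tnnc2 at the widest gap, Pgam2 over Pgam1 at 14.3-fold), and open circles left of the line are not above the limit.

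Marker lists described which cells the tissue held. Of 17 lists, 7 had a median above the limit, which 47.3% of all genes passed. Of these 7, atrial myocytes (1678, 5 of 10 above) and lymphatic endothelium (1618, 3 of 5) lay just above it. The ventricular myocyte list was first by far with a median of 213773 and 14 of 14 members above the limit. Fibroblast markers followed with 7343 (13 of 13 above), endothelium with 4601 (12 of 13), smooth muscle and pericytes with 3736 (9 of 12) and macrophages with 3409 (9 of 12). In bulk tissue, fewer cells of a type and less RNA per cell cannot be told apart.

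Fibroblast signal was led by Gsn and Dcn, the collagen-binding proteoglycan decorin, which read 63175, 66254, 73837 and 65996. Gsn is also made by myocytes and so says little about fibroblasts. Col3a1, a fibrillar collagen, read 18099, 11503, 21453 and 6053, and Col1a2 read 6474, 7462, 8499 and 6936. The more selective fibroblast markers Pdgfra (2684), Tcf21 (2405) and Postn (1817), the last a marker of activated fibroblasts, stood lower. Col1a1 read 228.0, 1719, 3416 and 1675, with replicate 1 far below its partner chain Col1a2.

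Of the endothelial list 12 of 13 members, and of the smooth muscle and pericyte list 9 of 12, had a mean above the limit. Among endothelial markers the co-receptor Eng read 5527, 3765, 8424 and 9033, and the junction protein Cdh5 read 4701, 6796, 4208 and 4161. Claudin 5 (Cldn5) read 6728, 2083, 4579 and 2121, higher in both males than in both females. Pericytes were represented by Rgs5, a G protein regulator, with 29346, 42997, 28634 and 32046, and by the potassium channel subunits Abcc9 (7899) and Kcnj8 (3992). The contractile smooth muscle genes Tagln (1407), Myh11 (1405) and Cnn1 (381.9) did not reach the limit, while Acta2 (37933) and Des (36127), the muscle intermediate filament protein desmin, did. Des and Rgs5 were close to Acta2 in signal, and Des is made by myocytes too.

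Macrophage markers were led by the growth factor receptor Csf1r with 17160, 9093, 14788 and 8511, and by lysozyme (Lyz2) at 8693. The summed signal of the 12 macrophage genes was 60391, 36104, 60908 and 41154. Both males lay above both females, and 9 of 11 tested members had that order, or 7 under quantile normalization, against 21.2% of all 8417 genes tested. C1qa, a complement component, read 6255, 731.6, 6103 and 4550, so replicate 2 stood apart. Lymphocyte markers had a median of 592.1 with 0 of 9 above the limit, among them Cd3e at 299.8 and Cd4 at 188.9. Neutrophil and mast cell markers had 759.0 with 2 of 9 above.

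Atrial markers were mixed. The atrial list had a median of 1678, just above the limit, and 5 of 10 members passed it, a share near the 47.3% of all genes. Sln (359.8) and Myl7 (336.4) were both under the limit in all 4 mice, while the atrial light chain Myl4 read 3234, 1787, 1666 and 1915. After Nppa the brightest of the list was Stard10, a lipid transfer protein, at 5672. The potassium channel Kcnj3 read 2224, 2696, 3438 and 2901, and the transcription factor Tbx5 3322, 1996, 2137 and 3164. Kcnj3, Tbx5 and Myl4 were above the limit in every mouse.

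Most markers of other tissues were near the level of genes of other organs. Of the skeletal muscle list, 3 of 15 passed the limit. These were Ckm and Acta1, which heart muscle also makes, and the fast skeletal pump Atp2a1 (2216), above the limit in every mouse. Myh4 (172.3), Tnnc2 (93.2), Actn3 (172.5) and the factor Myod1 (263.6) did not pass. Myl1 did not pass by its mean of 1456, but read 151.0, 2000, 2016 and 1658, above the limit in replicates 2 to 4. Of the adipocyte list, 2 of 8 passed the limit. It was led by Fabp4 at 59504, a lipid-binding protein that capillary endothelium makes too. Cidea also passed, with 3516, 1558, 2689 and 3456, above the limit in every mouse. Adipoq, made almost only by fat cells, read 89.0, 57.5, 385.5 and 349.5. Lung epithelium had 0 of 8 above the limit, with Sftpc at 787.7. Conduction system markers had 0 of 6, and the proliferation list 1 of 9, Pcna at 9754, with Mki67 at 268.0 and Top2a at 312.3. Alas2, the haem enzyme of red cell precursors, read 7001, 237.0, 2057 and 2738, whereas Hba-a1 read 564.6, 255.5, 117.0 and 363.0. Sox10 (2166), a marker of Schwann cells, passed the limit in all 4 mice.

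**Figure D3:**
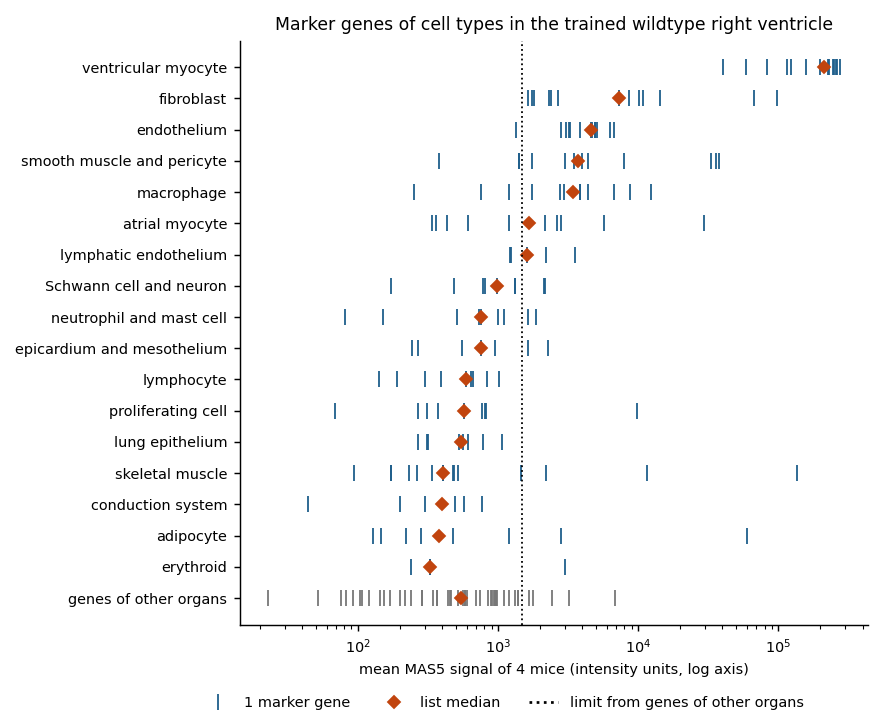
Mean MAS5 signal (log axis) of each marker gene in 17 cell type lists and in the list of genes of other organs; ticks are genes, diamonds list medians and the dotted line the limit of 1477. The diamond of ventricular myocytes lies at 213773, that of fibroblasts at 7343 and that of genes of other organs at 541.7.

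The 4 arrays differed little for bright genes and more for dim ones. With 1 array per mouse, a difference between mice and one between arrays cannot be told apart. The SD of log2 signal over the 4 mice had a median of 0.33 over the 7436 genes at or above the 40th percentile of mean log2 signal. With all genes cut by mean signal into 4 equal sets, the median SD was 0.29 in the brightest set, then 0.34, 0.53, and 0.77 in the dimmest. Among the 30 brightest genes alone it was 0.15, and 0 of 30 had a range over 2-fold. Of all genes, 45.6% had a range over 2-fold between the highest and the lowest mouse, and of the 3099 genes in the brightest set (mean signal of at least 3357) 19.3% had one.

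Against that background, the lists differed. A range over 2-fold occurred in 0 of 14 ventricular myocyte genes, 0 of 13 glycolysis genes, 0 of 12 genes of energy buffering, 2 of 27 sarcomere genes and 2 of 21 tricarboxylic acid cycle genes. Other bright lists had more, with 10 of 73 oxidative phosphorylation, 8 of 24 fatty acid, 14 of 43 ribosomal protein and 8 of 16 calcium handling genes. Of the 100 brightest genes 7% had such a range, so low shares in bright lists are not read as a trait of those lists. It occurred in 17 of 21 immediate early genes. It occurred in 10 of 17 clock genes, a share near the 45.6% of all genes. Lists of dim genes had high shares too, with 4 of 4 erythroid, 5 of 6 conduction system, 6 of 8 lung and 11 of 15 skeletal muscle genes, and most of their members were under the limit. The steadiest gene of the brightest set was Gja1, whose 4 values spanned 90673 to 93284 (SD of log2 0.018). Other probe sets of Gja1 were less steady, and one read 6547, 7734, 26209 and 13270. Cox4i1 read 166268, 165070, 162395 and 169060, and Mlycd, malonyl-CoA decarboxylase, read 4786, 4842, 4885 and 4715.

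Immediate early genes, which cells switch on within minutes of a stimulus without new protein synthesis, had the highest median range of the 12 function lists, 6.51-fold. Fos, a component of the AP-1 transcription factor, read 43869, 421.6, 8947 and 665.6, a range of 104-fold. Egr1, a zinc finger factor, read 35141, 1056, 17138 and 1860, and Nr4a1, an orphan nuclear receptor, read 27776, 1470, 14548 and 2702. The order of the mice was the same for these 3 genes, with replicate 1 highest, replicate 3 next and both females lowest.

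The same order of males above females held for Dusp1, a phosphatase that switches MAP kinases off, with 89576, 11338, 39891 and 8643. It held too for Btg2, an antiproliferative protein, with 31388, 3958, 10117 and 2673, and for Zfp36, which destroys cytokine mRNA, with 14313, 2051, 7048 and 1312. Atf3, a stress factor, read 7465, 27.0, 1643 and 459.6, and Junb 7814, 178.5, 5483 and 1972. Replicate 1 was the highest mouse for 17 of the 21 genes, replicate 2 the lowest for 11 and replicate 4 for 8. Jund (3571 to 5879), Ier3, Fosb and Myc did not exceed a 2-fold range. The summed signal of the list was 0.657% of all signal in replicate 1, 0.122% in replicate 2, 0.310% in replicate 3 and 0.100% in replicate 4. Errfi1, which restrains the EGF receptor and was not in the list, followed the same order with 47870.3, 2302, 13488 and 3256.

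**Figure D4:**
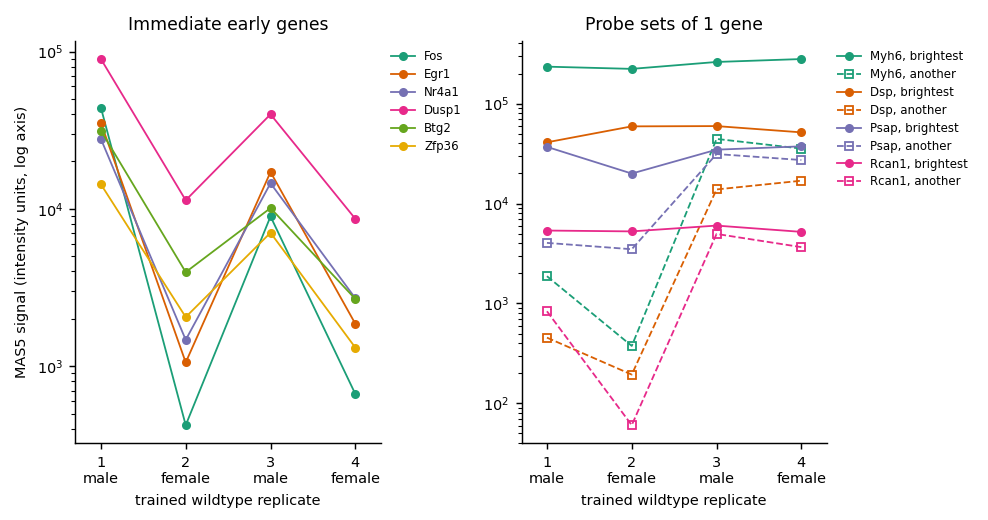
MAS5 signal (log axis) in the 4 trained wildtype mice; lines only join the values of one probe set. Left, 6 immediate early genes are higher in both males (replicates 1 and 3) than in both females; right, the brightest probe set of Myh6, Dsp, Psap and Rcan1 (solid) differs little between mice while another probe set of the same gene (dashed) is low in replicates 1 and 2.

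The most variable gene of the brightest set was Hspb7, a small heat shock protein of heart muscle, which read 4386, 874.1, 95714 and 82269.5 with its brightest probe set. Another probe set of the gene read 16412, 8075, 51728 and 45017, and the remaining one 14782, 6555, 19734 and 13126. Replicates 1 and 2 were lowest with the first and with the second of these, and replicate 1 was above replicate 4 with the last. Replicates 1 and 2 are the arrays with GAPDH ratios of 2.50 and 17.8.

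The pattern of Hspb7 recurred in other probe sets. Of 8955 probe sets with a mean signal above the limit, 91 were over 2-fold lower in both replicates 1 and 2 than in both other mice, and 3 were over 2-fold higher. Over 4-fold, the counts were 25 lower and 0 higher. For 15 genes among these 25, another probe set of the same gene, not itself among the 25, was above the limit. Of those 31 other probe sets 1, of Hspb7, was also over 2-fold lower in both. The 31 leave out any that agreed by over 4-fold. Hdlbp had such a case, with 666.1, 650.1, 5592 and 3383, and 133.0, 58.5, 4158 and 2742. The count of 1 in 31 is thus lowered by its selection. Myh6 was one of the 15: its second probe set read 1874, 375.5, 44319.5 and 35475, while its brightest read between 222629 and 279306. In replicates 1 and 2 this second probe set lay below Myh7, and in replicates 3 and 4 above it. Read by gene, 8 of the 3099 genes of the brightest set were over 2-fold lower in both replicates 1 and 2, and 2 were higher. In the same set both males exceeded both females so at 16 genes. This split of the mice was chosen after values were seen, and no other was counted over the 8955 probe sets. The actin ratio of replicate 2 was 1.29.

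Desmoplakin (Dsp), the desmosomal linker to intermediate filaments, read 454.6, 194.0, 13833 and 16921 with one probe set and 40980.1, 59192, 59567 and 51549 with its brightest. Rcan1, a calcineurin regulator, read 834.1, 60.5, 4961 and 3661 with one and 5364, 5260.2, 6014 and 5203 with the other. Psap, a lysosomal protein precursor, read 4036, 3487, 31287 and 27245 with one and 36906, 19947, 34589 and 37354 with the other. For all 3 genes the brightest probe set did not separate replicates 1 and 2 from the rest by 2-fold. The part of the GAPDH ratio in these values was not tested. Where a gene has 1 such probe set only, as for Kifc3 (2577, 2818, 7216 and 7231) and Bsg (45525, 47210.3, 100542 and 106830), no second reading bears on its level.

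**Figure D5:**
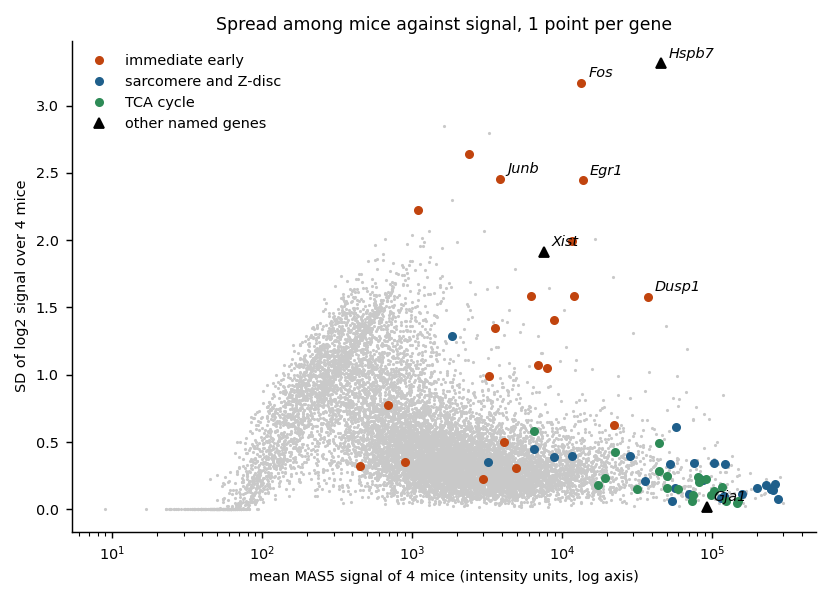
SD of log2 signal over 4 mice against mean MAS5 signal (log axis), 1 point per gene for 12393 genes. Most immediate early genes (red) lie above genes of like signal, up to 3.17 for Fos, most sarcomere (blue) and tricarboxylic acid cycle genes (green) lie low, and Hspb7 stands highest of the brightest set at 3.32.

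Replicate 1 stood apart at more genes than any other mouse. In the brightest set it lay over 2-fold from the median of the 3 other mice at 214 genes, 100 above and 114 below. Replicate 2 did so at 129 genes, 29 above and 100 below, while replicates 3 and 4 did so at 52 and 55. Single genes with 1 deviating mouse included Snrnp27, a splicing protein, with 1777, 19670.4, 9286 and 10654, and Abcb8, a mitochondrial transporter, with 3710, 556.6, 5167 and 9898.

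Clock genes also differed between mice, without a common order. Dbp, a clock output factor whose level swings strongly over the day, read 5056, 3229.9, 9603 and 5476, and Nr1d1, a repressor of the clock, read 3433, 2251, 4620.0 and 1949. Nr1d2 was steady apart from replicate 2, with 15369, 19186, 15471 and 15522, and Hlf read between 2190.3 and 2322. The inducible chaperones Hspa1b (1442, 442.6, 948.1 and 750.1) and Hspa1a (999.6, 367.0, 120.5 and 474.1) lay under the limit, while Dnajb1, a co-chaperone, read 7373, 3527, 2791 and 4628, highest in replicate 1.

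The 2 males and 2 females of the group allowed a comparison by sex, which first checks the labels. Eif2s3y, a Y-linked translation factor, read 4649, 15.5, 1825 and 26.0, and the Y-linked demethylase Kdm5d 821.6, 47.0, 809.6 and 66.5 with 1 of its 3 probe sets. The brightest probe set of Kdm5d read 273.5, 829.1, 502.1 and 521.6 and did not follow sex. Xist, the RNA that silences an X chromosome in females, read 1159, 17586, 1699.7 and 10045. The probe sets of Eif2s3y and Xist and the first of Kdm5d separated the labelled sexes without overlap.

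With limma, 1 of 13576 probe sets passed at an adjusted p under 0.05, higher in males (0.00737%), and 0 passed higher in females (0%), while 706 had an unadjusted p under 0.05. The probe set that passed is unnamed here, since it has no single gene symbol in the annotation used. It read 6570.2, 8, 8197 and 26.0, high in both males and low in both females as Eif2s3y was. Its log2 difference was 6.17 (SE 0.45, limma, adjusted p = 0.0362). Both females are below the floor, so this value depends on the floor. It was lost with no floor and a pseudocount of 1, with no filter, with the 60th percentile filter and without replicate 1. Without replicate 3, with 1 male left that was assumed to vary like the other mice, 15 probe sets passed as higher in males and 65 as higher in females. Xist did not pass (log2 -3.24, SE 0.38; limma, adjusted p = 0.261).

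The named autosomal genes of lowest p were mostly immediate early genes, and none passed. Egr1 differed by 4.13 (SE 0.45; limma, adjusted p = 0.24), Nr4a1 by 3.33 (SE 0.44), Fos by 5.22 (SE 0.70) and Ier2 by 2.28 (SE 0.34), all male over female. Dyrk1b, a kinase, differed by 2.31 (SE 0.32) with 3922, 751.1, 3529 and 745.6. In 12 of 18 tested immediate early genes both males lay above both females, or 13 under quantile normalization, against 21.2% of all genes (19.6% under quantile normalization). In the brightest set both males exceeded both females by over 2-fold at 16 genes, of which 9 are in the immediate early list, and both females exceeded both males so at 1. The other 7 were Errfi1, Sgk1, a kinase induced by glucocorticoids, Cox19, Cebpd, Cldn5, Cxcl14 and Hsd11b1, which activates glucocorticoids. Each sex holds 1 array of GAPDH ratio above 2, replicate 1 among the males and replicate 2 among the females, and with 2 mice per sex a difference between single mice and one between sexes cannot be told apart.

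In the other direction both females lay above both males at 16.0% of all genes (17.3% under quantile normalization). Cytosolic ribosomal proteins did so in 24 of 41 cases, or 17 under quantile normalization, such as Rpl41 with 49157, 132365, 78014 and 125965 (log2 -1.06, SE 0.26) and Rpl22l1 with 8567, 25474, 13196 and 27947 (log2 -1.33, SE 0.30). Atp5md, a small ATP synthase subunit, read 26709.5, 102480.0, 51811 and 87198 (log2 -1.35, SE 0.33), and Asb6 differed by -1.91 (SE 0.35). None of these passed (limma, adjusted p of 0.716 and above). Oxidative phosphorylation genes were higher in both females in 26 of 72 cases as deposited and in 17 under quantile normalization, where 15 were higher in both males, so that this count depends on the scaling.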

How the data were processed

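Right ventricular total RNA of 4 trained wildtype mice was measured on Affymetrix mouse arrays, 1 per mouse. RNA was extracted with TRIzol, reverse transcribed from an oligo(dT) primer and labelled with biotin, per the labels' protocols. The deposited values are linear intensity signals made by the authors with MAS5 version 5.0, per the submitters' processing notes; detection calls were not analysed here. Precision is limited by having 4 arrays.

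Of 22690 probe sets 64 were controls, 20380 had 1 gene symbol in GEO's platform annotation, 691 several and 1555 none. A gene was read by its brightest probe set over the 4 arrays. For SDs and folds, values below 102 (the 10th percentile) were set to 102 before log2 was taken. Sex was compared with limma 3.58.1 in R 4.3.3 (lmFit, eBayes with trend, two-sided, Benjamini-Hochberg over 13576 probe sets at or above the 40th percentile, threshold 0.05), and the code was checked on simulated data. Named are the 30 brightest genes, the first 2 of each family, up to 5 of each cell type list, the 15 most variable of the 3099 brightest genes, up to 5 variable members of 3 lists, the genes of lowest p by sex and the label markers. Other members of these lists are named where a role is described. Genes singled out for 1 deviating array or for probe sets that follow the GAPDH ratio were chosen after their values were seen. Members and lists were chosen with earlier results of these data known. Promoters came from RefSeq (GRCm38.p6); no array coordinates were used.

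Alternatives were quantile normalization, other averages over arrays or probe sets, other floors and filters, other eBayes settings, each array left out, and both arrays of GAPDH ratio above 2 left out.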

Additional observations from a re-analysis of the deposited data

Results flagged for a closer look

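A sample far from the other 3 was found for 14 of 257 results examined (5.45%), where chance gives about 1 in 20. Replicate 2 was the distant mouse for 6 of them: Cdh2 (28408.5), Cacna1c (16002.5), Pkp4 (9947), Pcna (11796.5) and Kdm6a (2138) were high there and C1qa (731.6) was low. Replicate 1 was distant for 4, with Cox8b (44349), Pdk2 (6168) and Myl1 (151.0) low and Esam (7982) high. Replicate 3 was distant for Ldha (55012, low) and Acaca (1624, high), and replicate 4 for Tnnt2 (287211) and Aldoa (124629), both high. The highest exceeded the lowest mouse by 13.4-fold for Myl1, 8.55-fold for C1qa, 3.62-fold for Acaca and 3.58-fold for Cox8b, but only by 1.10-fold for Aldoa and 1.24-fold for Tnnt2.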

How the results depend on the processing

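The 100 brightest genes shared between 82 and 100 members with every alternative, the lowest without probe sets of the suffix _x_at or _s_at, which also lowered the ribosomal protein genes among them from 7 to 4. The leader was kept in 52 to 56 of 56 families, and between 5 and 7 cell type lists had a median above the limit. With the median over the probe sets of a gene, the log2 gap of tropomyosins turned to -1.37, the log2 gap of laminin alpha to -0.37, the log2 gap of VEGF receptors to -0.15 and the log2 gap of myosin light chains to -0.36, the last also without suffixed probe sets. The log2 gap of translation factor eEF1A ranged from -0.041 to 0.28 with each replicate left out, and was -0.031 without replicate 3. Of 2365 recomputed signals of named genes 78 moved by more than 1 SD.

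The median SD of 0.33 became 0.19 without both arrays of high GAPDH ratio (a median SD over 2 arrays is smaller by construction), 0.41 without a filter and 0.30 with the 60th percentile filter; with each replicate left out it ranged from 0.28 to 0.33. The count by sex, 1, became 0 with a pseudocount of 1, with no filter and with the 60th percentile filter, and ranged from 0 to 80 with each replicate left out (0 to 15 higher in males, 0 to 65 higher in females). With each replicate left out, the male minus female log2 difference of a Ddx3x probe set, -0.24, ranged from -0.75 to 0.26 (without replicate 1), and that of an Eif2s3x probe set, 0.16, from -1.15 (without replicate 2) through -0.46 (without replicate 3) to 1.48. Neither passed as measured on 4 arrays. No paired analysis was possible because the replicates belong to 1 group and their numbers are only names. Dim genes limit the precision: signals under 1477 cannot be told from genes of other organs.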
